A study of Mus musculus with 22 samples.

Results

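The cells described here are the 1247 of 77674 cells (1.61%) that the authors' deposited cell table names notochord, 1 of 25 cell type names, in a single-cell RNA-seq series of mouse gastruloids. Gastruloids are balls of mouse embryonic stem cells that, left in culture, differentiate into many of the lineages of the gastrulating embryo. All samples came from the wild-type (WT) E14Tg2A stem cell line, seeded at 300 cells per well, aggregated for 48 h and then exposed to 3 µM CHIR99021, a GSK3 inhibitor that activates Wnt signalling, so every comparison is between days or between experiments and not between treated and untreated cells. In the 10X experiment gastruloids of day 3 or day 4 after aggregation were pooled before capture. Single gastruloids were told apart in the 3 MULTI-seq experiments by lipid-anchored barcodes on their cells. MULTI-seq 1 held day 5, MULTI-seq 2 held days 4 and 4.5 in shared pools, and MULTI-seq 3 held day 3 in its own lanes, days 3.5 and 4 in 1 shared pool, and days 4.5 and 5 in another. Earlier samples of MULTI-seq 2 (days 3 and 3.5) were not used here. Gastruloids model the trunk of the embryo from 1 stem cell line without extraembryonic tissue, and a notochord here is a cluster of cells with that name, not a rod seen by microscopy.

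The notochord is the midline rod of axial mesoderm that patterns the tissues around it. It is laid down from the node, whose cells are ciliated and release Nodal and BMP inhibitors, and it depends on the transcription factors T (brachyury), Foxa2 and Noto. It secretes sonic hedgehog (Shh), which neighbouring neural and somite cells read through the receptor Ptch1, and it later builds a sheath of collagen and laminin.

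Across the 18 lanes, 64703013 to 307883815 UMIs were summed, and notochord cells made up 0.397% to 2.83% of a lane's cells. The median UMI count of notochord cells was 6572 to 28478 per lane, against 8287 to 38443 for all cells, and it was below that of the other cells on each day of each experiment. Of the 1247 notochord cells, 882 (70.7%) carried the barcode of 1 gastruloid, 44 were called doublets of 2 barcodes, 109 had no barcode and 212 were in lanes or calls without an identifiable gastruloid. In the lanes with such calls, 4.56% of notochord cells were barcode doublets (44 of 965, exact Clopper-Pearson 95% interval 3.33% to 6.07%) against 8.43% of other cells (4753 of 56369). The notochord share was the lower in 8 of 11 lanes and slightly the higher in 3, the day 3 lanes of MULTI-seq 3 and 1 lane of MULTI-seq 2. Cells called doublets entered no sum per gastruloid but were kept in the values over all 1247 cells, at day 3 of MULTI-seq 3 and in the sets of cells without a gastruloid. Doublets of cells from 1 gastruloid cannot be seen this way and no other doublet caller was run. Of all cells, 1471 had a cell barcode sequence that also occurred in another library, and 27 of these were notochord cells. The median share of mitochondrial UMIs in notochord cells was 2.30% to 2.86% in the lanes of MULTI-seq 3 and 5.38% to 6.72% in the other lanes.

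The name was checked against Noto, Shh, Foxa2 and T. The clusters were made from these same expression values, so the levels below describe the cluster and carry no test. Promoters of the markers were read from RefSeq (GRCm38.p6), from 250 bases before to 50 after the start, because forkhead factors such as Foxa2 and the T-box factor T are themselves members of the set. The forkhead letters TGTTTAC and TGTTTGC and the T-box letters TCACACC were searched on both strands, and the forkhead words differ by 1 base and so cannot match at 1 position. Noto and T are printed in lower case, and capitals mark the 1 match, TGTTTGC read on the minus strand of Noto at chr6:85423636-85423935 (plus strand gene). The T window, chr17:8434173-8434472 on the plus strand, held none of these letters, nor did the 3 windows of Foxa2. Shh was not matched in the promoter table.
Noto: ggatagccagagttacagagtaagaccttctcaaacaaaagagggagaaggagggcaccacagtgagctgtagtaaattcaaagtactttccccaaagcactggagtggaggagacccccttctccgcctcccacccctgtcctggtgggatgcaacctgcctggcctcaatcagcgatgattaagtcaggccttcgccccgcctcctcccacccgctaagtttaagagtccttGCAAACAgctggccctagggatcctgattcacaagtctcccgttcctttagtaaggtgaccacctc
T: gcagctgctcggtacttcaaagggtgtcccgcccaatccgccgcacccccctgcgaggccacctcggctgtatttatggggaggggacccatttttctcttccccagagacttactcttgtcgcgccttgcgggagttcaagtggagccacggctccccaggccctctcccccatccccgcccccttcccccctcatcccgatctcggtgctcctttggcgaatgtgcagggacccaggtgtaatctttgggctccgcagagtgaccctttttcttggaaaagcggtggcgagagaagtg
Of 32851 promoter windows of this length, 3.65% held TGTTTAC, 5.07% held TGTTTGC, 8.48% held either and 3.98% held TCACACC, so 1 match among the markers is a description and not a binding site.

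All 4 markers were far above other cells in the cluster. At day 4 of MULTI-seq 3, Noto, a homeobox factor of node and notochord, stood at 40.1 CPM (UMIs of the gene per 1000000 UMIs of the summed cells) against 0.3 in all other cells. The ligand Shh stood at 85.5 against 1.5 CPM, the forkhead factor Foxa2 at 166 against 17.4 CPM and T at 825 against 70.2 CPM. Foxa2 was also high in Mature Endoderm cells, at 121 CPM, so this marker alone separates notochord poorly from endoderm, whereas Noto was at 1.2 and Shh at 11.5 CPM there. At day 5 Shh had reached 62.2 CPM in Mature Endoderm cells of MULTI-seq 3, beside 139 CPM in notochord cells. In MULTI-seq 1, Shh was 80.3 CPM in Mature Endoderm and 71.3 CPM in notochord cells of day 5, and in MULTI-seq 2 at day 4.5 it was 26.5 and 23.6 CPM, so Shh did not set notochord apart from endoderm in those sets.

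**Figure D1:**
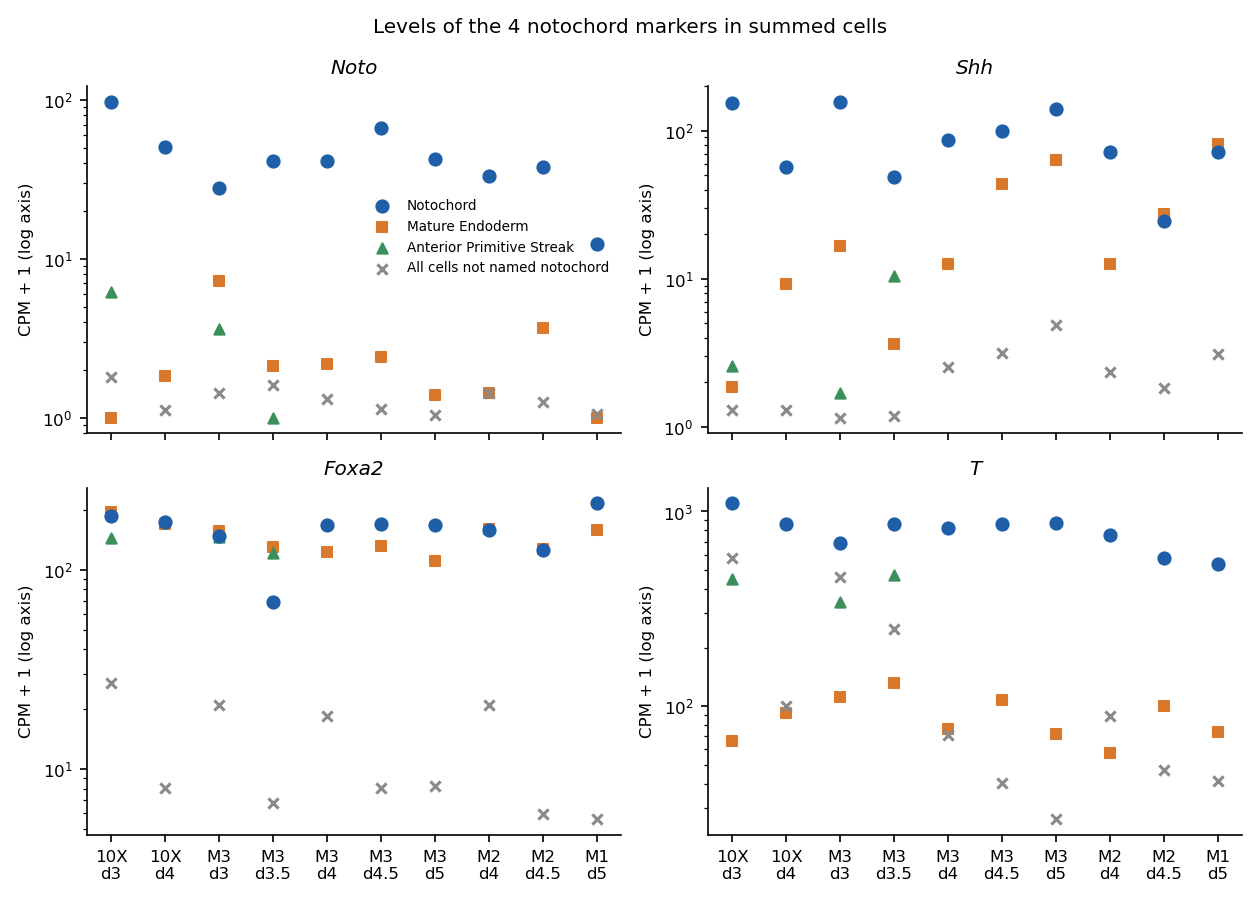
Levels of Noto, Shh, Foxa2 and T, in CPM plus 1 on a log axis, in notochord cells (blue circles), Mature Endoderm (orange squares), Anterior Primitive Streak where at least 20 cells were present (green triangles) and all other cells (grey crosses) of each day and experiment; M1, M2 and M3 are MULTI-seq 1, 2 and 3. Noto lies above the other classes in each set, T lies far above them from day 4 on, and Foxa2 and, at the later days, Shh lie close to Mature Endoderm.

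The markers varied over days without a common course. In MULTI-seq 3 from day 3 through days 3.5, 4, 4.5 and 5, the level of Noto was 27.0, 40.2, 40.1, 65.6 and 41.5 CPM. Over the same days Shh was 156, 47.3, 85.5, 98.2 and 139 CPM. Foxa2 was 146, 68.3, 166, 168 and 166 CPM, lowest at day 3.5, and T was between 688 and 870 CPM. At day 3, T was also high in the other cells, at 458 CPM, and at day 3.5 at 248 CPM, so T set the cluster apart less than at day 4, most of all at day 3. Gastruloids of one day differed as much: over 12 gastruloids of day 4 with at least 5 notochord cells, Noto ran from 0 to 78.7 CPM (median 20.9), Shh from 0 to 170 (median 56.3), Foxa2 from 45.4 to 195 (median 148) and T from 369 to 1135 (median 695). T was the marker found in almost every cell of the cluster.

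Per cell, at least 1 UMI of T was detected in 98.4% of the 1247 notochord cells, of Foxa2 in 76.0%, of Shh in 39.9% and of Noto in 35.6%. With each cell thinned to 5000 UMIs, which left out 7 notochord cells, these shares were 92.7%, 45.3%, 21.6% and 15.2%. In Mature Somites, a type that should lack the markers and has a close median depth (22316 UMIs, against 21532 in notochord cells), the thinned shares were 1.56% for T, 0.185% for Foxa2 and 0.0217% for Shh, with 60 cells of 9268 left out, and without thinning 7.67%, 0.788% and 0.119%, with Noto at 0.0108%. In classes closer to notochord single markers were as frequent: without thinning, T was found in 99.3% of Primitive Streak and 98.9% of Caudal Epiblast cells, and Anterior Primitive Streak cells had T in 97.0% and Foxa2 in 84.3%. Mature Endoderm cells had Foxa2 in 90.7% and Shh in 33.9%, while Noto was found in 1.78% to 5.77% of the cells of these 4 classes. All 4 markers were found together in 16.3% of notochord cells (3.71% after thinning), and none of the 4 in 0.962% (4.76%). Few single cells therefore show the whole set at this depth, although their sum does.

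Markers of other cell types were uneven in the cluster. At day 4 of MULTI-seq 3, the summed level of 7 endoderm markers was 350 CPM in notochord cells (97.5 to 418 over the 12 gastruloids) and 606 CPM in other cells. Its defining members Sox17 and Spink1 were 4.5 and 1.6 CPM, against 258 and 524 CPM in Mature Endoderm. Most of the sum came from Trh (122 CPM, against 2507 in Mature Endoderm), Epcam (119 against 749) and Cldn6 (86.0 against 241), with Foxa1 at 16.6 and Cxcr4 at 0.7. The 5 paraxial mesoderm markers summed to 28.3 CPM against 286 in other cells, and the 3 endothelial markers to 0.9 against 14.5, with Pecam1 at 0. The 7 neural and floor plate markers summed to 58.7 CPM (3.7 to 110 over gastruloids) against 29.4 in other cells. Most of it was Sox2 (48.7 CPM), while Sox1 was 1.5 and Pax6 0.7 CPM, and the progenitor gene Olig2 was at 0 UMIs (exact Poisson upper bound 0.286 CPM). The 4 caudal progenitor markers, which notochord precursors share, summed to 404 to 906 CPM over the 12 gastruloids (median 563) against 197 in other cells. The 6 streak and node markers summed to 196 CPM against 185 in other cells, and the 3 germ cell markers to 62.3 against 39.7. At day 3 these 2 sums were 268 against 309 and 60.3 against 698 CPM. At day 5 they were 109 against 17.6 and 7.6 against 7.1 CPM. The endoderm and neural sums changed direction between days. Over days 3, 3.5, 4, 4.5 and 5 of MULTI-seq 3 the endoderm sum was 314, 422, 350, 209 and 234 CPM. In other cells it was 404, 178, 606, 247 and 242 CPM. The neural and floor plate sum was 104, 24.8, 58.7, 89.7 and 83.1 CPM, against 26.1, 54.0, 29.4, 133 and 142.

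The genes that lead the cluster are known for axial mesoderm or adhesion. At day 5 of MULTI-seq 3, beside T, Shh and Foxa2, the leading genes by ratio to all other cells included Nog, a BMP inhibitor, at 102 against 0.6 CPM, Nodal at 65.3 against 0.6 CPM and Chrd, a BMP inhibitor, at 67.4 against 3.1 CPM. Slit2, a secreted guidance cue, was 185 against 11.1 CPM, Dsp, a desmosome protein, 269 against 14.5 CPM, and Sox9, a regulator of cartilage and sheath genes, 286 against 23.3 CPM. Bicc1, an RNA-binding protein of the node, was 255 against 12.6 CPM, and Mnx1, a homeobox factor, 64.2 against 2.1 CPM. Cthrc1 (307 against 10.6 CPM), Tnnt3 (114 against 2.2 CPM), Alcam (166 against 5.4 CPM) and Clu (254 against 25.4 CPM) also led.

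The highest ratio belonged to Defa30, at 1892 against 11.5 CPM. Defa30 and Gm14851 (67.4 against 0.4 CPM) belong to the multicopy alpha-defensin family, whose copies are nearly identical, so which locus made these UMIs is uncertain. Defa30 was 2236 CPM in notochord cells of day 3 of MULTI-seq 3 but 202 CPM at day 5 in MULTI-seq 1 and 113 CPM in the 10X day 4 lane, so its level differed between experiments. All 25 leading genes of day 5 were above the other cells in each of the other 11 sets of cells except day 3 of the 10X experiment (22 of 25) and day 3 of MULTI-seq 3 (24 of 25). Of the 25 leading genes of each other set, 11 (day 3.5 of MULTI-seq 3) to 20 (day 4.5 of MULTI-seq 3) were the same as those of day 5.

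By role, Shh, Nodal, Nog, Chrd and Ptch1 were well above the other cells, while several lists (hedgehog, BMP and Nodal, sheath, FGF and Wnt) had shares of higher members not far from the background. The counts that follow are for day 4 of MULTI-seq 3, where 1.2% of the 8337 genes at 10 CPM or more (99 genes) were at least 3-fold above the other cells after 5 CPM was added to both, and 47.1% (3925) were higher at all, a description with no test. Members of the lists were counted at any level, also below 10 CPM. Of 15 hedgehog genes, the marker Shh among them, 9 were higher in notochord cells and 3 at least 3-fold. Ptch1, the receptor that hedgehog itself induces, was 377 CPM (51.4 to 547 over 12 gastruloids) against 49.0 in other cells and 66.8 in Mature Endoderm, and Smo, the signal transducer, was 66.9 against 56.2 CPM. Gas1, a co-receptor that hedgehog represses, was 35.3 against 127 CPM. Gli1, a target named after its values were seen, was 20.9 against 2.2 CPM.

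Of 14 BMP and Nodal genes 8 were higher and 4 at least 3-fold. Nodal was 80.4 CPM (34.8 to 129 over gastruloids) against 3.9, and Nog 79.9 (12.7 to 118) against 1.8. Fst and Fstl1, secreted inhibitors, were 166 against 182 and 93.4 against 103 CPM and so did not mark the cluster at day 4. Chrd was 53.1 against 3.7 CPM, and Lefty1, a Nodal inhibitor named after its values were seen, was 51.8 against 1.9 CPM with a range of 0 to 136 over gastruloids.

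Of 17 node and cilium genes 15 were higher in notochord cells and 4 at least 3-fold. Dand5, a Nodal inhibitor of the node, was 98.1 against 5.3 CPM, and Foxj1, the master factor of motile cilia, 36.0 against 1.0 CPM with 0 to 108 over gastruloids. Rfx3 and Pkd2, a ciliary factor and a ciliary channel, were 39 against 28.9 and 38.2 against 24.9 CPM. Of 14 genes of a list of notochord regulators, mostly transcription factors but with Bicc1 and Nrarp among them, 12 were higher and 7 at least 3-fold, with Sox9 at 187 against 25.7, Bicc1 at 231 against 22.8 and Mnx1 at 60.5 against 1.8 CPM. That list repeats the markers Noto, Foxa2 and T, and Foxj1 of the node and cilium list, so its counts are not separate from theirs.

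The sheath was less marked. Of 18 sheath and matrix genes 11 were higher and 1 at least 3-fold. Fn1 (fibronectin) was 336 CPM against 564 in other cells, Lamb1 (a laminin chain) 77.2 against 49.5 and Col2a1, the main sheath collagen, 44.4 against 13.8. At day 5 Col2a1 was 114 against 36.9 and Comp, a matrix protein named after its values were seen, 18 against 0.3. Of 8 keratin and vacuole genes 5 were higher: Krt8 and Krt18 were 198 against 74.1 and 162 against 95.4 CPM, and both were higher still in Mature Endoderm (512 and 681 CPM). Krt19, named after its values were seen, was 57.6 against 3.6 CPM and ran from 0 to 126 over gastruloids.

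Growth signals were mixed. Of 21 FGF and Wnt genes 9 were higher, among them Fgf8 at 289 against 103, Cdx2 at 244 against 66.8 and Sp5, a Wnt target, at 188 against 64.4 CPM, while Lef1 was 91.0 against 296. Of 9 retinoic acid genes 2 were higher, and Aldh1a2, which makes retinoic acid, was 17.9 against 387 CPM. Of 18 cell cycle genes 3 were higher. Cdkn1c, an inhibitor of the cycle, was 500 against 174 CPM at day 4 and 1136 against 322 at day 5, whereas the division genes Top2a, Cenpf and Mki67 were below the other cells, at 368 against 578, 372 against 461 and 170 against 271. Of 39 Hox genes 11 were higher at day 4 and 0 at least 3-fold.

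Gastruloids of 1 day held very different amounts of notochord. Each value in the next sentences is the percent of notochord cells among all cells of 1 gastruloid with at least 30 cells. At day 4 of MULTI-seq 3 all 16 gastruloids held some, from 0.143% to 9.58% with a median of 1.21% (mean 3.08% ± 3.42 SD). The 3 with most notochord cells held 258 of the 423 notochord cells (61.0%) but 21.4% of all cells of that day. In MULTI-seq 2 at day 4 the share was 0% to 8.20% with a median of 2.44% (mean 3.18% ± 3.12 SD, n = 11), and 9 of 11 gastruloids had at least 1 notochord cell.

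Day 3 had the fewest: the 24 gastruloids of MULTI-seq 3 ran from 0% to 4.42% with a median of 0% (mean 0.455% ± 0.993 SD), and 11 of them held a notochord cell. The 13 without one held 143 to 326 cells, and the upper limits of their shares were 0.920% to 2.10%. At day 3.5 the range was 0% to 3.54% with a median of 0.698% (mean 1.25% ± 1.19 SD, n = 16). At the later days 1 gastruloid carried much of the sum. At day 4.5 of MULTI-seq 3 the range was 0% to 17.7%, the median 0.433% and the mean 1.67% ± 4.31 SD (n = 16), and the gastruloid with barcode 47 supplied 53 of 79 cells. At day 5 the range was 0% to 9.90%, the median 0.361% and the mean 1.16% ± 2.48 SD (n = 16), and the gastruloid with barcode 18 supplied 70 of 138 cells.

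In MULTI-seq 2 at day 4.5 the mean was 1.01% ± 0.960 SD (n = 12, median 0.839%) and in MULTI-seq 1 at day 5 it was 0.678% ± 0.702 SD (n = 24, median 0.531%). The variance over gastruloids, divided by that of sampling cells alone, was 29.7, 28.3 and 27.8 at days 4, 4.5 and 5 of MULTI-seq 3, 4.65 at day 3 and 2.39 at day 3.5. It was 2.98 and 1.61 at days 4 and 4.5 of MULTI-seq 2 and 2.26 in MULTI-seq 1. The same ratio over the lanes of a pool was 0.634 to 2.35, below the ratios over gastruloids of MULTI-seq 3 from day 4 on. Such a ratio grows with the number of cells per gastruloid. At day 4 the median was 854 cells in MULTI-seq 3 and 143 in MULTI-seq 2, while the SDs of the share were close, at 3.42 and 3.12. At day 4.5 of MULTI-seq 3 the gastruloid with barcode 47 held 17.7% and the next 1.71%. No ratio was computed without single gastruloids.

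**Figure D2:**
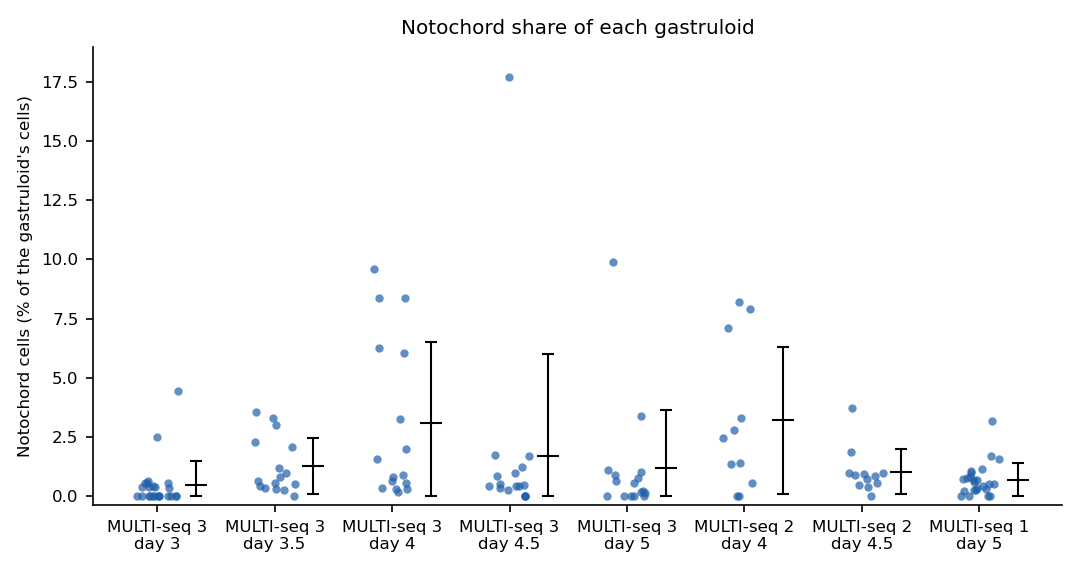
Percent of cells named notochord in each gastruloid with at least 30 cells (dots), by day and experiment, with the mean (black bar) and SD (whiskers, not drawn below 0). Most gastruloids lie under the mean of their day, and the days from 4 on in MULTI-seq 3 hold a few gastruloids far above it, up to 17.7% at day 4.5.

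No difference in the share between days passed the test. The tests are two-sided permutation tests of mean percents (100000 resamples), adjusted by Benjamini-Hochberg over the cell types of a comparison, and measure only the spread between gastruloids of 1 culture. In MULTI-seq 3 the share was higher at day 4 than at day 3.5 by 1.83 percentage points (permutation p = 0.0509, adjusted p = 0.0707), and 10 of 16 gastruloids lay above the day 3.5 median. In that comparison 68.0% of the 25 types passed. Day 5 against day 4.5 differed by -0.510 points (permutation p = 0.728, adjusted p = 0.924, 25.0% of 24 types passed), and without the gastruloid with barcode 47 the sign turned, to 0.560.

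In MULTI-seq 2, day 4.5 lay below day 4 by 2.17 points (a difference of -2.17, permutation p = 0.0300, adjusted p = 0.0750), with 11 of 12 gastruloids below the day 4 median and 33.3% of 24 types passing. With edgeR's quasi-likelihood test of cell numbers the log2 fold change was -1.57 with an adjusted p of 0.0464 there, and 1.29 with 0.0521 for day 4 against day 3.5. Leaving out single gastruloids of day 4 took the day 4 against 3.5 test under the threshold for barcodes 12, 14, 15 and 4 (adjusted permutation p = 0.0478, 0.0458, 0.0478 and 0.0473), and leaving out barcode 59 of day 4.5 or barcodes 25 or 49 of day 4 did so in MULTI-seq 2 (adjusted permutation p = 0.0420, 0.0382 and 0.0381).

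Between experiments at 1 day the notochord share did not pass the test either, where culture, library and lane cannot be told apart. At day 4 the mean in MULTI-seq 3 minus that in MULTI-seq 2 was -0.102 points (permutation p = 0.938, adjusted p = 1, 0.0% of 25 types passed and 4 had an unadjusted p under 0.05). At day 4.5 it was 0.661 points (permutation p = 0.945, adjusted p = 0.985, 0.0% of 25 types, 4 unadjusted), and without barcode 47 it was -0.410. At day 5 MULTI-seq 3 minus MULTI-seq 1 was 0.484 points (permutation p = 0.467, adjusted p = 0.788, 4.35% of 23 types passed), and without barcode 18 it was -0.0989.

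The notochord share was set against the share of each other type over the gastruloids of a day, 103 pairs in all. None passed adjustment (0.0% by permutation tests, lowest adjusted p 0.183), and 14 had an unadjusted p under 0.05. Anterior Primitive Streak, a Foxa2-positive class tested at day 3 of MULTI-seq 3, had a Pearson's r of 0.76 (permutation p = 0.0119, adjusted p = 0.265), with rho 0.07 (permutation p = 0.732) and r -0.07 without the 2 gastruloids farthest from the median share. Mature Endoderm, also Foxa2-positive, was tested in the sets from day 4 on, but no r over all gastruloids is given for day 4 of MULTI-seq 2, where the shares fall into separate clusters. Primitive Streak had an r of -0.55 at day 3 of MULTI-seq 3 (permutation p = 0.0113, adjusted p = 0.265), with rho -0.34 (permutation p = 0.104) and r -0.32 without the 2 gastruloids farthest from the median share. At day 3.5 its r was -0.59 (permutation p = 0.0180, adjusted p = 0.272), with rho -0.47 (permutation p = 0.0660) and r -0.31 without them. The sign for Primitive Streak was the other way at day 4. In MULTI-seq 3 its r was 0.19 (permutation p = 0.477, adjusted p = 0.805) and rho 0.35 (permutation p = 0.185). In MULTI-seq 2, where these shares too fall into separate clusters, rho was 0.79 (permutation p = 0.00493, adjusted p = 0.508). For Mature Endoderm at day 4 of MULTI-seq 3 r was 0.55 (permutation p = 0.0273, adjusted p = 0.272), with rho 0.19 (permutation p = 0.489) and r 0.57 without the 2 gastruloids farthest from the median share. In MULTI-seq 2 at day 4.5 it was 0.66 (permutation p = 0.0231, adjusted p = 0.272), with rho 0.28 (permutation p = 0.378) and r -0.10 without them, and in MULTI-seq 1 it was 0.18 (permutation p = 0.382, adjusted p = 0.805), with rho 0.07 (permutation p = 0.729) and r -0.05 without them. At day 5 of MULTI-seq 3 it was 0.73 (permutation p = 0.00195, adjusted p = 0.183) with Spearman's rho 0.56 (permutation p = 0.0257, n = 16). Without the 2 gastruloids farthest from the median share the r was 0.32, so it rests on them. At day 4.5 r was 0.72 (permutation p = 0.00355), rho 0.43 (permutation p = 0.0954) and r without those 2 gastruloids 0.19.

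The authors also mapped every cell onto a mouse embryo reference, and the names given there split the cluster. Of the 1247 notochord cells 607 (48.7%) were mapped to Notochord, 209 (16.8%) to Node, 127 (10.2%) to Caudal epiblast, 66 to Intermediate mesoderm, 51 to Anterior Primitive Streak and 50 to Nascent mesoderm. In the other direction, 90.9% of all cells mapped to Notochord were in the cluster, and 29 of the rest were in Mature Endoderm. Both names come from the same counts, so their overlap is not independent evidence.

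In MULTI-seq 3 the share mapped to Notochord was larger at day 4 and later than before, while the pooled 10X lanes had 45% (9 of 20 cells) at day 3 and 43.9% (25 of 57) at day 4. In MULTI-seq 3 day 3 had 14.3% (exact 95% interval 5.94% to 27.2%), day 3.5 had 27.0% (16.6% to 39.7%) and day 4 had 50.1% (45.2% to 55.0%). Day 4.5 had 48.1% and day 5 had 70.3% (61.9% to 77.8%). The Node share was 12.2%, 19%, 21.0%, 19% and 2.90% on these days. At day 4.5, 14 of the 15 Node-mapped cells came from the gastruloid with barcode 47, and without it the share was 3.85% (1 of 26), a value added after the data were seen. In the 10X lanes it was 25% at day 3 and 24.6% at day 4. In MULTI-seq 1 at day 5 the Notochord and Node shares were 80.0% and 10.0% (5.66% Node without the gastruloid with barcode 11), and in MULTI-seq 2 they were 30.2% and 32.1% at day 4 and 42.9% and 10.7% at day 4.5. The intervals cover counting error only, and cells of 1 gastruloid are not independent. The percent of notochord cells mapped to embryonic stage E8.5 or later was 14.6, 34.4, 58.5, 64.6 and 79.7 from day 3 to day 5 of MULTI-seq 3, and 42.1 and 47.4 at days 3 and 4 in the 10X lanes.

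**Figure D3:**
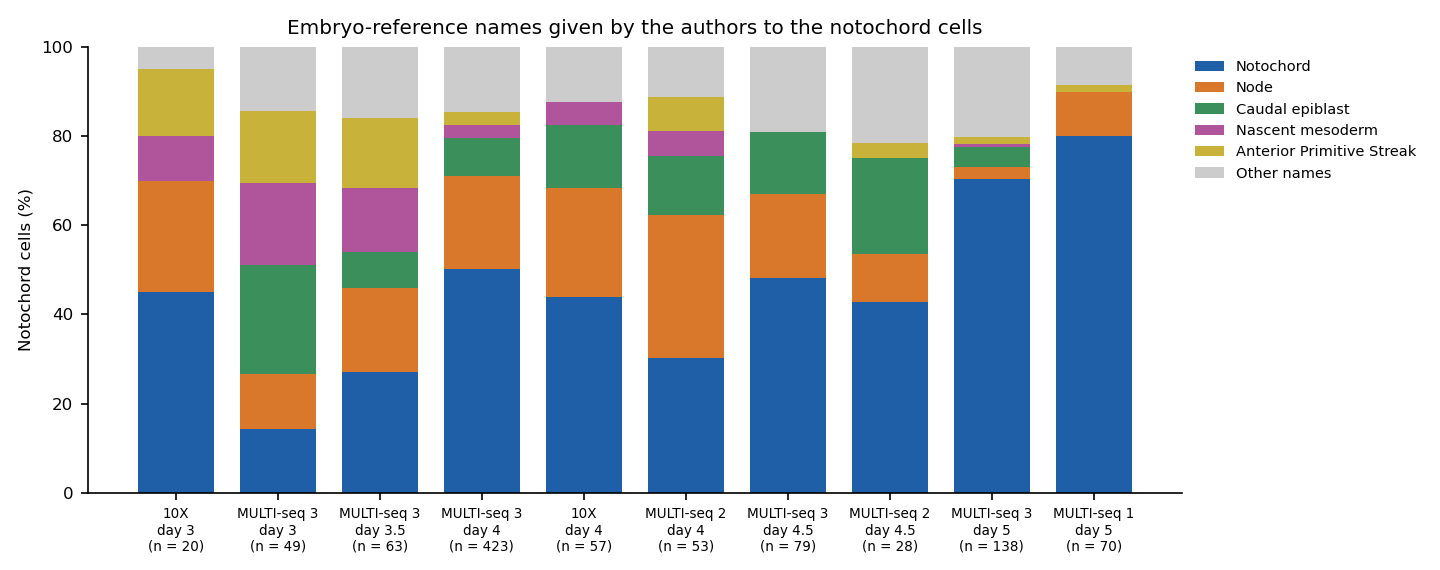
Percent of notochord cells by the embryo type they were mapped to (stacked bars: Notochord, Node, Caudal epiblast, Nascent mesoderm, Anterior Primitive Streak, other), for 10 sets of day and experiment with the number of cells under each bar. The Notochord part grows from 14.3% at day 3 to 70.3% at day 5 in MULTI-seq 3, and the Node part is 21.0% at day 4 and 2.90% at day 5.

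Cells mapped to Node and to Notochord were unlike within the cluster. At day 4 of MULTI-seq 3, 89 cells of 8 gastruloids were mapped to Node and 212 cells of 12 gastruloids to Notochord, with close median UMI counts of 25065 and 25029.5. The mapping used the same counts, so the values are a description, and the genes named in this paragraph and the next were chosen after their values were seen. Of the 17 node and cilium genes 16 were higher in Node-mapped cells, 7 of them at least 3-fold after 5 CPM was added, against 49.8% higher and 0.610% at least 3-fold among 8518 genes at 10 CPM or more. List members were counted at any level. Foxj1 was 132 CPM in Node-mapped and 11 in Notochord-mapped cells. Among the other 3-fold members, which build or move cilia, Pifo was 52.8 against 3.0, Cfap126 46.4 against 3.0, Dnah5 27.5 against 2.4, Dnah11 15.1 against 1.4 and Tekt1 21.9 against 1.1 CPM. Shh (195 against 77.0), Noto (83.8 against 40.8), T (1221 against 848), the node and organiser factor Lhx1 (161 against 48.1) and the keratins Krt8 (437 against 143) and Krt19 (172 against 36.0) were higher in Node-mapped cells too, and Foxa2 was at 192 against 185.

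The Hox list and the cell cycle list lay the other way. Of 39 Hox genes 31 were lower in Node-mapped cells, 9 of them at least 3-fold, and 0 were higher. Of 18 cell cycle genes 16 were lower and 0 at least 3-fold. Among the 8518 genes at 10 CPM or more 50.2% were lower and 0.258% at least 3-fold, while list members were counted at any level. Hoxb8 was 70.9 CPM in Notochord-mapped and 3.0 in Node-mapped cells, Hoxb4 63.6 and 4.9, and Hoxb2 55.8 and 2.3. Fgf17, an FGF ligand, was 45.7 and 6.0, Wnt5a 60.6 and 15.1, Sox2 68.2 and 17.4, Top2a 395 and 214 and Mki67 192 and 98.1 CPM. The 36 cells mapped to Caudal epiblast were lower still in Noto (17.3) and Shh (10.6) and held Fgf8 at 461, Nkx1-2, a caudal progenitor factor, at 55.8 and Hoxb8 at 158 CPM.

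The same values are given gastruloid by gastruloid as a description, since the mapping that set the names used these counts. In 6 gastruloids of day 4 with at least 3 cells of each name, Foxj1 was 29.7 to 194 CPM in Node-mapped and 4.05 to 15.7 in Notochord-mapped cells. The sum of the 17 node and cilium genes was 255 to 971 against 196 to 344 CPM, and that of the 39 Hox genes 14.3 to 62.3 against 247 to 651 CPM, without overlap of the Hox sums. In 6 of 6 gastruloids Foxj1 and the cilium sum were higher and the Hox sum lower in Node-mapped cells. The gastruloid with barcode 47 at day 4.5, with 14 of 53 notochord cells mapped to Node (26.4%), had Foxj1 at 183 against 9.2 and a Hox sum of 76.4 against 713 CPM. In that with barcode 18 at day 5, 2 of 70 notochord cells were mapped to Node and 54 (77.1%) to Notochord. Of 12 gastruloids of day 4 with at least 5 notochord cells, 8 had a Node-mapped cell.

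**Figure D4:**
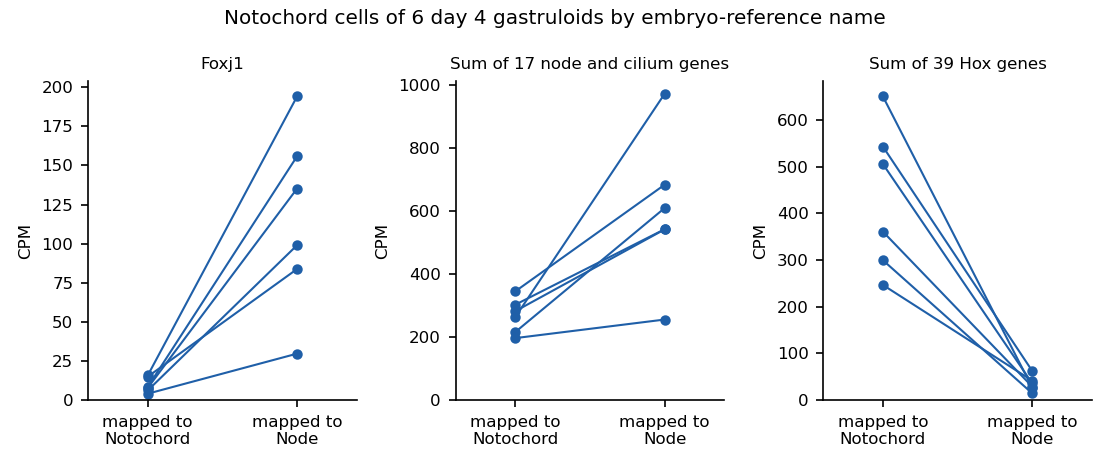
Levels in CPM in Notochord-mapped and Node-mapped cells of the same gastruloid (joined by a line) for 6 gastruloids of day 4 of MULTI-seq 3: Foxj1, the sum of 17 node and cilium genes and the sum of 39 Hox genes. Each line goes up for Foxj1 and the cilium sum and down for the Hox sum.

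Within notochord cells, 44 of 5408 genes (0.814%) differed between day 4 and day 3.5 of MULTI-seq 3 at an adjusted p under 0.05 (edgeR's quasi-likelihood test, Benjamini-Hochberg), 5 higher (0.0925%) and 39 lower (0.721%) at day 4. UMIs were summed per gastruloid over 12 gastruloids of day 4 (414 cells) and 4 of day 3.5 (47 cells), 5 to 91 cells each, and days share a pool and its lanes. Levels below are TMM-normalised CPM per gastruloid. Among the genes that fell were Dkk1, Gsc, Tdgf1, Pou5f1 and Cdkn1a, and the 5 that rose were Gpc3, Clu, Cdk5rap2, Map1b and Tmsb4x. In 0.888% of all genes tested (48) the values of the days did not overlap.

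Dkk1, a Wnt inhibitor of anterior mesendoderm, was 94.2, 68.3, 146 and 75.8 CPM in the 4 gastruloids of day 3.5 (mean 96.2 ± 35.2 SD). At day 4 it ran from 0 to 27.4 with a median of 13.9 (15.5 ± 8.55 SD, n = 12), with no overlap. The log2 fold change was -2.37 (SE 0.29, edgeR adjusted p = 0.000139).

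Gsc (goosecoid), an organiser factor, was 34.3, 32.5, 57.5 and 36.9 CPM at day 3.5 and 5.11 to 23.4 (median 10.2) at day 4, again with no overlap. Its log2 fold change was -2.17 (SE 0.34, edgeR adjusted p = 0.00193). Tdgf1 (Cripto), the Nodal co-receptor, was 38.5, 104, 115 and 103 CPM at day 3.5 and 0 to 60.6 (median 16.0) at day 4, a log2 change of -2.43 (SE 0.57, edgeR adjusted p = 0.0380) that lost its call in 12 of 26 alternative settings. Pou5f1 (Oct4), the pluripotency factor, fell from 128 to 58.6 CPM (log2 -1.12, edgeR adjusted p = 0.0253), and Hoxb1, an early Hox gene, from 48.9 to 22.0 (-1.53, edgeR adjusted p = 0.0477). Hoxb1 kept its call in 10 of 26 alternative settings.

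Cdkn1a (p21), a brake on the cell cycle, was 124, 202, 272 and 173 CPM at day 3.5 and 26.9 to 109 (median 73.4) at day 4, with no overlap (log2 -1.19, SE 0.21, edgeR adjusted p = 0.00757). Lgals1, a galectin, was 206, 153, 209 and 124 CPM against 25.2 to 113 (median 60.8), a log2 change of -1.34 (SE 0.20, edgeR adjusted p = 0.0015). Dgkk, Chchd10, Upp1 and Abcc1 completed the 10 largest falls, with log2 changes of -1.32, -1.25, -1.25 and -1.20, and kept their calls in 20, 13, 18 and 14 of 26 settings. Of 81 ribosomal protein genes 12 fell, with a median log2 change over all 81 of -0.23, and 0 of 13 mitochondrial genes passed. Both families were read from gene names and chosen after the values were seen.

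Gpc3, a glypican that modulates Wnt and hedgehog signals, was 201, 221, 225 and 208 CPM at day 3.5 and 276 to 452 (median 398) at day 4, with no overlap. The log2 rise was 0.83 (SE 0.13, edgeR adjusted p = 0.0015). Clu (clusterin), a secreted chaperone, was 21.4, 39, 26.1 and 15.6 CPM at day 3.5 and 33.7 to 146 (median 84.9) at day 4, a log2 rise of 1.96 (SE 0.39, edgeR adjusted p = 0.0160). The other rises were Cdk5rap2, a centrosome protein (30.3 ± 8.43 to 67.4 ± 14.5 SD, log2 1.04, edgeR adjusted p = 0.0153), Map1b, a microtubule protein (0.95, edgeR adjusted p = 0.0160), and Tmsb4x, an actin-binding peptide (1.15, edgeR adjusted p = 0.0477), which kept its call in 13 of 26 settings.

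**Figure D5:**
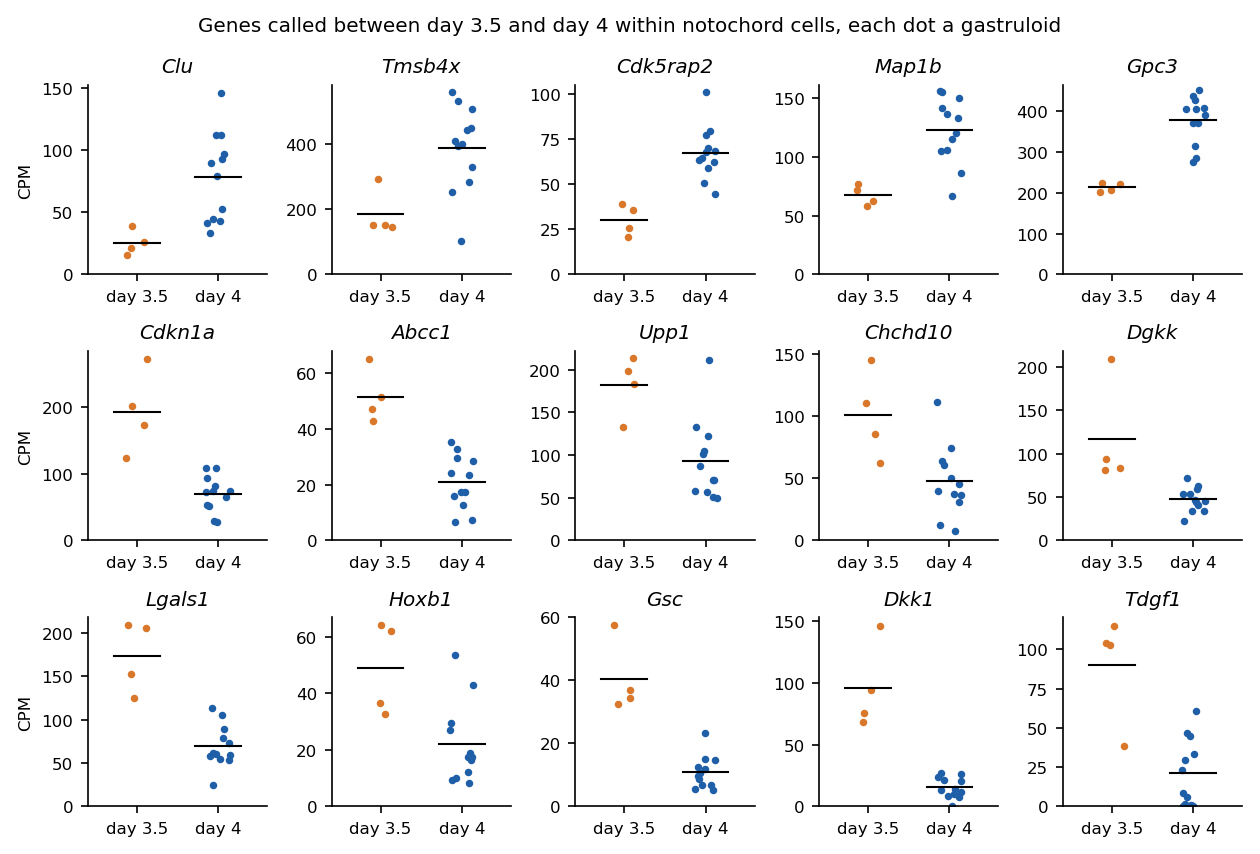
Normalised level (CPM) of the 15 named genes that passed the test, in each gastruloid of day 3.5 and day 4 of MULTI-seq 3 (dots) with the mean (bar). Dkk1, Gsc and Cdkn1a are lower in each of the 12 gastruloids of day 4 than in each of the 4 of day 3.5, and Gpc3 is higher.

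None of the 4 markers passed. Foxa2 was 140 at day 4 and 90.6 CPM at day 3.5 (log2 0.83, SE 0.31, edgeR adjusted p = 0.213), T 729 and 918 (-0.28, edgeR adjusted p = 0.587), Noto 25.4 and 58.2 (-0.41, edgeR adjusted p = 0.810) and Shh 68.2 and 66.9 (0.32, edgeR adjusted p = 0.841). The median log2 change over all 5408 genes was 0.01. Of 6 streak and node markers 4 were tested, all lower at day 4 (median -1.26), and Gsc passed. Of 14 BMP and Nodal genes 8 were tested and Tdgf1 passed, with Fst at 236 against 646 CPM (log2 -1.62, edgeR adjusted p = 0.0510). Of 21 FGF and Wnt genes 14 were tested, 11 were lower and Dkk1 passed, with Fgf8 at 341 against 590 CPM (-0.86, edgeR adjusted p = 0.0806).

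Among hedgehog genes 5 of 15 were tested and all 5 were higher at day 4, but 0 passed (5 higher, median 0.32); Ptch1 was 285 against 143 CPM (log2 1.23, edgeR adjusted p = 0.182). Of 17 node and cilium genes 4 were tested and 0 passed, Dand5 standing at 92.6 against 24.8 CPM (1.94, edgeR adjusted p = 0.0962). Of the 18 cell cycle genes all were tested, 12 were higher and Cdkn1a alone passed, downward. Among sheath genes 6 of 18 were tested and 0 passed, with Col2a1 at a log2 change of 1.15 (edgeR adjusted p = 0.235). Of 39 Hox genes 4 were tested, and 3 of the 4 were higher at day 4 (median log2 change over the 4 of 1.05). Hoxb1 alone passed, downward. Of 3 germ cell markers Pou5f1 was the 1 tested. The members not tested had too few UMIs in sums of so few cells.

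Makeup moved with these changes. The share of notochord cells mapped to embryo Notochord was 27.0% at day 3.5 and 50.1% at day 4. The sum of the 6 streak and node markers was 396 CPM at day 3.5 (136 to 508 over gastruloids) and 196 at day 4 (102 to 356), and that of the endoderm markers 422 and 350. Their part in the changes was not tested. The count of calls also moved with 1 library: without lane A it was 7, without lane B 13 and without lane C 95. Without the day 3.5 gastruloids with barcodes 24, 28, 49 and 56 it was 21, 14, 18 and 7. Without those of day 4 it was 20 to 104, under 30 without barcode 1 (21), 13 (20) or 10 (28), and over 66 without 19 (72), 2 (80), 21 (79) or 22 (104).

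Whether notochord cells changed otherwise than the other cells of the same gastruloids was tested as an interaction with the gastruloid as a block, a test added after the data were seen. No gene passed by edgeR (0 of 5408, 0.0%, 450 with an unadjusted p under 0.05). In the other cells 18.2% (984) of these genes changed. The sums of other cells hold far more cells and mix types whose shares differed between the days, so the counts are not set against each other. Dkk1 had the log2 difference -2.51 (SE 0.57, edgeR adjusted p = 0.287), with 25.5 CPM at day 4 and 31.2 at day 3.5 in other cells. T fell in the other cells, from 240 to 81.3 CPM (log2 -1.56, edgeR adjusted p = 0.00454), beside -0.28 in notochord cells, a difference of 1.30 (edgeR adjusted p = 0.287). Cdkn1a fell in other cells too (-0.98, edgeR adjusted p = 0.00548) and Clu rose in them (2.95, edgeR adjusted p = 0.020).

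No gene was called between later days, where fewer notochord cells and fewer genes entered the tests. The absence of calls does not show that less changed. Day 5 against day 4.5 of MULTI-seq 3, with 8 and 5 gastruloids (134 and 70 cells), gave 0 of 2905 genes by edgeR (0.0%, 123 with an unadjusted p under 0.05) and 0 by DESeq2 (100 unadjusted). T was 841 CPM at day 5 and 809 at day 4.5 (log2 0.06), Foxa2 175 and 181 (-0.07) and Shh 104 and 115. The fitted log2 fold change of Shh was 0.26, opposite in sign to its mean levels, so no direction is read from it. Of 18 sheath and matrix genes 4 were tested, 3 were higher at day 5 and 0 passed. Among these 4, Col2a1 and Sox9 had log2 differences of 0.86 and 0.66, neither of which passed. Day 4.5 against day 4 of MULTI-seq 2, with 3 and 5 gastruloids (16 and 47 cells), gave 0 of 2620 (0.0%, 112 unadjusted; DESeq2 0, 59 unadjusted). Its lowest p was that of Nodal, 13.2 CPM at day 4.5 and 107 at day 4 (log2 -2.84, edgeR adjusted p = 0.127). The values of the days did not overlap in 4.12% of its genes (108), and in 0.207% (6) for day 5 against day 4.5. Groups as small as 3 and 5 gastruloids often separate by order alone. The 4.12% is therefore not read as change, nor set against the shares of larger groups. Both comparisons used gastruloids with at least 3 notochord cells, because a minimum of 5 left fewer than 3 gastruloids on a side.

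Between MULTI-seq 3 and MULTI-seq 1 at day 5, 236 of 2956 genes (7.98%) passed in notochord cells, 153 higher (5.18%) and 83 lower (2.81%) in MULTI-seq 3, over 7 and 5 gastruloids (131 and 40 cells). Experiment, culture, depth and lane cannot be told apart. On the higher side Hist1h2ap was 690 against 18.8 CPM (log2 4.44, edgeR adjusted p = 1.42e-05), Hist1h2ae had a log2 difference of 4.44, Hist1h1b of 3.22 and Hist1h1e of 2.66. With 1 lane or gastruloid left out these 4 ran from 3.72 to 5.98, 3.43 to 5.42, 2.36 to 8.92 and 2.01 to 3.55. Hist1h1b was at 0 in all but 1 of the 5 gastruloids of MULTI-seq 1, so the size of its difference is uncertain. Of 81 ribosomal protein genes, a family chosen after the values were seen, 39 were higher and 2 lower, with a median log2 difference of 0.29. Defa30 was 1760 against 243 CPM (2.79, edgeR adjusted p = 0.000168), and Arf5, Ptk7 (a planar polarity receptor), Gm10076 and Otub1 were higher by 2.05 to 2.67 on the log2 scale. In 6.39% of the genes tested (189) the values of the experiments did not overlap.

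On the lower side, 7 of 12 mitochondrial genes, a family also chosen after the values were seen, were lower, and mt-Nd3 had the log2 difference -2.52. Meg3, an imprinted noncoding RNA, was 331 against 1144 CPM (-1.78) and Rapgef6 had a difference of -1.73. Upk3a (-1.99) and Cntnap2 (-1.77) kept their call in 8 and 3 of 24 alternative settings, with -2.80 to -0.53 and -2.23 to -0.95 when 1 lane or gastruloid was left out, and Upk3a was at 684 CPM in 1 gastruloid of MULTI-seq 1 and at 0 to 167 in the others. Vim, an intermediate filament, was 244 against 525 CPM (-1.04, edgeR adjusted p = 0.00476) and Hoxb2 101 against 170 (-1.02, edgeR adjusted p = 0.0321). The markers T (0.54), Foxa2 (-0.35) and Shh (0.53) had edgeR adjusted p of 0.254, 0.331 and 0.622, and T passed in 1 of 24 alternative settings, that with no filter on low counts. In the other cells of the same gastruloids 64.4% of these genes (1903) differed between the experiments, and the difference between notochord and other cells passed for 0 of 2956 (0.0%, edgeR, 240 unadjusted). The sums of other cells hold far more cells, so these counts are not set against each other. Without lane 1 of MULTI-seq 1, which held 37 of its 70 notochord cells, the count was 104, and without lane 3 it was 148.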

How the data were processed

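The authors deposited UMI counts per gene and cell barcode (32285 genes, 18 lanes), for which the file headers name Cell Ranger 6.0.0; the library kit was 10x 3' v3.1 per the labels' protocols, and Seurat and the mm10 build are named in the submitters' processing notes. Cell type, embryo-mapped name, MULTI-seq call and the fraction that scores the mapping came from the authors' deposited cell table; the fraction was not used for any result. Samples and files were matched by lane and barcode.

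Cells were summed per gastruloid. Shares used gastruloids with at least 30 cells and two-sided permutation tests (100000 resamples, Benjamini-Hochberg over types); relations used the same test. Gene tests used edgeR 4.0.16 (quasi-likelihood, TMM, filterByExpr, at least 5 notochord cells per gastruloid; 3 in 2 comparisons where 5 left fewer than 3 gastruloids a side) in R 4.3.3, with DESeq2 1.42.0, other minimums and omitted libraries as alternatives, and were checked on simulated counts. Detection was also computed with cells thinned to 5000 UMIs. Intervals are exact Clopper-Pearson or Poisson at 95% and cover counting error only.

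Named genes were the 4 markers, up to 10 rises and 10 falls passing adjusted p under 0.05 with a mean of at least 10 CPM, the 25 leading genes of day 5 of MULTI-seq 3 with at least 50 CPM, and up to 4 examples per gene list by lowest p or highest level; exceptions are stated, and a few genes that the rule names are not reported here. The members and lists were chosen with earlier results of these data known. Gastruloids of a group come from 1 culture, so p-values measure only the spread between them. Python 3.11.15, numpy 2.4.6, pandas 2.3.3 and scipy 1.17.1 were used. 0 columns of per-sample values were left unused.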

Additional observations from a re-analysis of the deposited data

Results flagged for a closer look

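In 13 of 73 groups of 4 to 10 gastruloids tested over the named genes, 1 gastruloid stood far from the others by Dixon's criterion. Chance gives this in about 1 group in 20 where values are normally distributed. That rate need not hold for CPM from sums of few cells, some of them at 0, so the count is not read against it. In day 3.5 of MULTI-seq 3, Tmsb4x was 293 CPM in the gastruloid with barcode 49 against 146 to 153 in the others, Dgkk was 209 in the same gastruloid against 81.4 to 94.3, and Tdgf1 was 38.5 in that with barcode 24 against 103 to 115. In day 5 of MULTI-seq 3, the gastruloid with barcode 1 held Hist1h2ap at 1653 CPM (374 to 725 in the others) and Hist1h2ae at 1405 (247 to 570). There the gastruloid with barcode 12 held mt-Co1 at 2504 (3803 to 4394) and mt-Co3 at 3883 (5664 to 6748), and that with barcode 7 held Cntnap2 at 102 (6.18 to 29.5). In day 5 of MULTI-seq 1, the gastruloid with barcode 15 held Arf5 at 134 CPM (28.1 to 57.6), mt-Atp6 at 8160 (15227 to 16715) and mt-Nd2 at 1639 (3519 to 3923). Hist1h1b was 50.5 in that with barcode 11 and 0 in the others, and Upk3a was 684 in that with barcode 12 against 0 to 167.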

How the results depend on the processing

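Of the alternatives to the results that answer a comparison, 319 kept direction, side of the threshold and size, 38 moved, 20 turned sign and 9 newly passed; those of the levels all kept theirs. With embryo-mapped names in place of cluster names the share differences were 1.31 (day 4 against 3.5, adjusted permutation p = 0.0307), 0.0835 (day 5 against 4.5) and 0.748 (day 4 between experiments), and the variance ratios 1.01 (day 4, MULTI-seq 2), 1.48, 1.18, 17.8 and 16.2 (days 3, 3.5, 4 and 4.5 of MULTI-seq 3). Square-root shares gave -0.0262 at day 4.5 between experiments, a minimum of 100 cells a ratio of 4.69 at day 4 of MULTI-seq 2, and edgeR on cell numbers -1.57 (log2) for day 4.5 against 4.

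With 1 lane or gastruloid left out, the share differences were 1.4 to 2.03 (day 4 against 3.5), -1.09 to 0.560 (day 5 against 4.5) and -2.58 to -1.53 (day 4.5 against 4). Between experiments they were -0.587 to 0.641 (day 4), -0.410 to 0.905 (day 4.5) and -0.0989 to 0.622 (day 5). The variance ratios without 1 lane were 0.888 to 1.35 (day 4.5, MULTI-seq 2), 2.36 to 4.33, 18.3 to 19.4 and 17 to 19.5 (days 3, 4.5 and 5 of MULTI-seq 3). Fewer cells per gastruloid lower such a ratio by construction.

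Genes called between days 4 and 3.5 numbered 115 with DESeq2, 99 and 127 with minimums of 3 and 10 cells, 28 with the number of cells as covariate and 7 to 104 with 1 lane or gastruloid left out. Day 5 against 4.5 gave 4 with no filter and 0 to 0 with 1 left out. Day 4.5 against 4 gave 22 with no filter, 8 with a minimum of 5 cells and 0 to 6 with 1 left out (6 without barcode 45). Day 5 between experiments gave 421 with no filter, 28 with a minimum of 10 cells and 104 to 223 with 1 left out.

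The fold changes of uncalled markers turned sign: Shh -0.23 with the covariate (day 4 against 3.5), -0.0586 with DESeq2 and -0.11 to 0.77 with 1 left out (day 5 against 4.5), Foxa2 -0.21 to 0.16 there and -0.36 to 0.0375 in MULTI-seq 2. T was -0.18 and -0.29 with minimums of 5 and 10 cells and -0.35 to 0.35 with 1 left out (day 5 against 4.5), and in MULTI-seq 2 -0.0648 with no filter, -0.13 with a minimum of 5 cells and -0.48 to 0.30. The cause of these shifts was not tested. Of the alternatives to single named genes, 952 kept direction and side of the threshold (706 of them of called genes), 142 lost a call, 1 gained it (T at day 5 between experiments, with no filter on low counts) and 24 turned sign.

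No paired analysis was possible between days or experiments because each gastruloid is 1 sample of 1 day: days of 1 pool share 0 barcode numbers, and a number that recurs in another experiment is a reused tag on another gastruloid. Lanes are technical splits. Sums of few cells leave low genes untested, 3 gastruloids carry most notochord cells of days 4, 4.5 and 5 of MULTI-seq 3, and doublets within a gastruloid cannot be seen.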

Other observations

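The summed level of the 17 node and cilium genes in notochord cells of MULTI-seq 3 was 125, 200, 334, 209 and 170 CPM on days 3, 3.5, 4, 4.5 and 5, against 71.9, 102, 115, 79.3 and 84.5 in the other cells. The summed Hox level on the same days was 244, 170, 340, 604 and 647 CPM in notochord cells, and 110, 692, 500, 1074 and 1156 in the other cells. At day 3.5 thus 1 of 39 Hox genes was higher in notochord than in other cells, and at day 3 it was 23 of 39. Fst, an inhibitor of activin, was 350, 703, 166, 67.1 and 74.1 CPM in notochord cells on these days. No test was run on these sums, and days 3, 3.5 with 4, and 4.5 with 5 were captured in separate pools.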
